A study of Mus musculus with 4 samples.

Results

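The genes described here make cholesterol and fatty acids and control that synthesis: the sterol regulatory element-binding proteins (SREBPs) and their escort, the enzymes of the mevalonate and sterol steps, and the enzymes that build and desaturate fatty acids. Members were taken by name, as probe sets of the array whose only gene symbol in the platform annotation was 1 of 29 listed genes. Of these, 27 had at least 1 such probe set and 54 probe sets in all, among 12393 genes that the array names in this way. The expression of Insig1 and Acat2 was not analysed here. A probe set was tested where its mean normalised intensity over the arrays reached 100, which left 22 of the 27 genes and 35 of their 54 probe sets, among 4998 genes and 7770 probe sets.

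The study used 4 Affymetrix 430A mouse arrays, each for RNA of 1 culture of mast cells grown out of bone marrow of mice aged 8 to 12 weeks during 4 to 6 weeks in 5 ng/ml interleukin-3. There were 2 cultures of wild-type (Pac1+/+) cells and 2 of Pac1-/- cells, which lack the MAP kinase phosphatase encoded by Dusp2, each numbered replicate 1 and 2. All 4 cultures carried IgE against dinitrophenyl for 18 h and then met the antigen DNP-HSA at 20 ng/ml for 2 h, which crosslinks the IgE receptor. No unstimulated culture is among them, so every value is a level in activated cells. Neither the strain of the mice nor the deleted part of Dusp2 is given in the sources used here, and the cells are whole cultures, of which over 98% stained for Kit and the IgE receptor. In bulk samples of this kind, fewer cells of a type and less RNA per cell cannot be told apart.

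As background, cells make cholesterol from acetyl-CoA through mevalonate, squalene and lanosterol. When sterols are scarce, Scap carries the SREBPs from the endoplasmic reticulum to the Golgi, where proteases free the part that enters the nucleus and switches on nearly every gene of the pathway, and Insig proteins hold this transport back when sterols are plentiful. Mast cells depend on these lipids for the membrane in which the IgE receptor signals, and on polyunsaturated fatty acids as the source of leukotrienes and prostaglandins.

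The arrays differed in ways that bear on these genes. The beta-actin 3' to 5' ratio of the deposited signals, a measure of RNA and labelling quality, was 109 for wild-type replicate 1, 1.58 for wild-type replicate 2, 293 for Pac1-/- replicate 1 and 54.8 for Pac1-/- replicate 2. The GAPDH ratio was between 0.798 and 1.36 on 3 arrays and 191 on Pac1-/- replicate 2. Y-linked Eif2s3y read 219 in wild-type and 275 in Pac1-/- cells of replicate 1, and at most 2.1 in both cultures of replicate 2. X-linked Xist, by its brightest probe set, read 47.7 in wild-type and 41.7 in Pac1-/- cells of replicate 1, and 2952 and 984 in those of replicate 2. Both sex-linked genes thus moved with the replicate number. Of 9 mast cell markers, 8 read at least 100 on all 4 arrays, against 2 of 8 macrophage markers, 1 of 6 erythroid and megakaryocyte markers and none of the neutrophil, basophil and eosinophil, lymphocyte, and stromal and adipocyte markers. The Dusp2 probe set read 167 and 90.7 in wild-type and 109 and 75.5 in Pac1-/- cells. These overlap (log2 difference -0.44, SE 0.51, limma adjusted p = 0.888), and without knowing where its probes lie they do not check the genotype labels.

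No gene of the set passed the test between Pac1-/- and wild-type cells. Of the 22 tested genes, each taken by its brightest probe set, 10 had a positive and 12 a negative log2 difference (Pac1-/- minus wild-type), with a median of -0.11. Among all 4998 tested genes 56.1% were positive and 43.9% negative, with a median of 0.10. None of the 22 genes passed limma's test at a Benjamini-Hochberg adjusted p under 0.05, the lowest adjusted p being 0.866, and none passed at an unadjusted p under 0.05. Over all genes 0% passed the adjusted and 2.92% the unadjusted threshold, and over all probe sets 0% and 3.38%. Of the 35 tested probe sets of the set none passed either threshold, and in 9 the genotypes did not overlap, against 37.7% of all probe sets. The genotypes did not overlap in 4 of the 22 genes, against 37.6% of all tested genes, so separation of the genotypes was no more frequent here than elsewhere. With 2 cultures a genotype the 95% confidence interval of a difference reached 1.51 log2 units to either side in the median gene of the set. It reached 1.09 in the most precise, Idi1. A difference smaller than this reach could not be told from 0 in its gene. These intervals are unadjusted and come from a fit without a replicate term, so they do not set the limit of the adjusted test.

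The direction of the set as a whole was not stable. The median difference was -0.25 within replicate 1 and -0.04 within replicate 2, with 13 of 22 genes negative in each, but only 10 genes, 45.5%, had the same sign in both pairs, against 59.8% of all tested genes. The median was 0.25 without Pac1-/- replicate 1, where that of all tested genes was 0.24. It was -0.35 without wild-type replicate 1, where that of all tested genes was 0.13. With median centring of the arrays in place of quantile normalisation, 15 of the 22 genes were positive and 7 negative, with a median of 0.65, but the median of all tested genes then moved to 0.72.

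**Figure D1:**
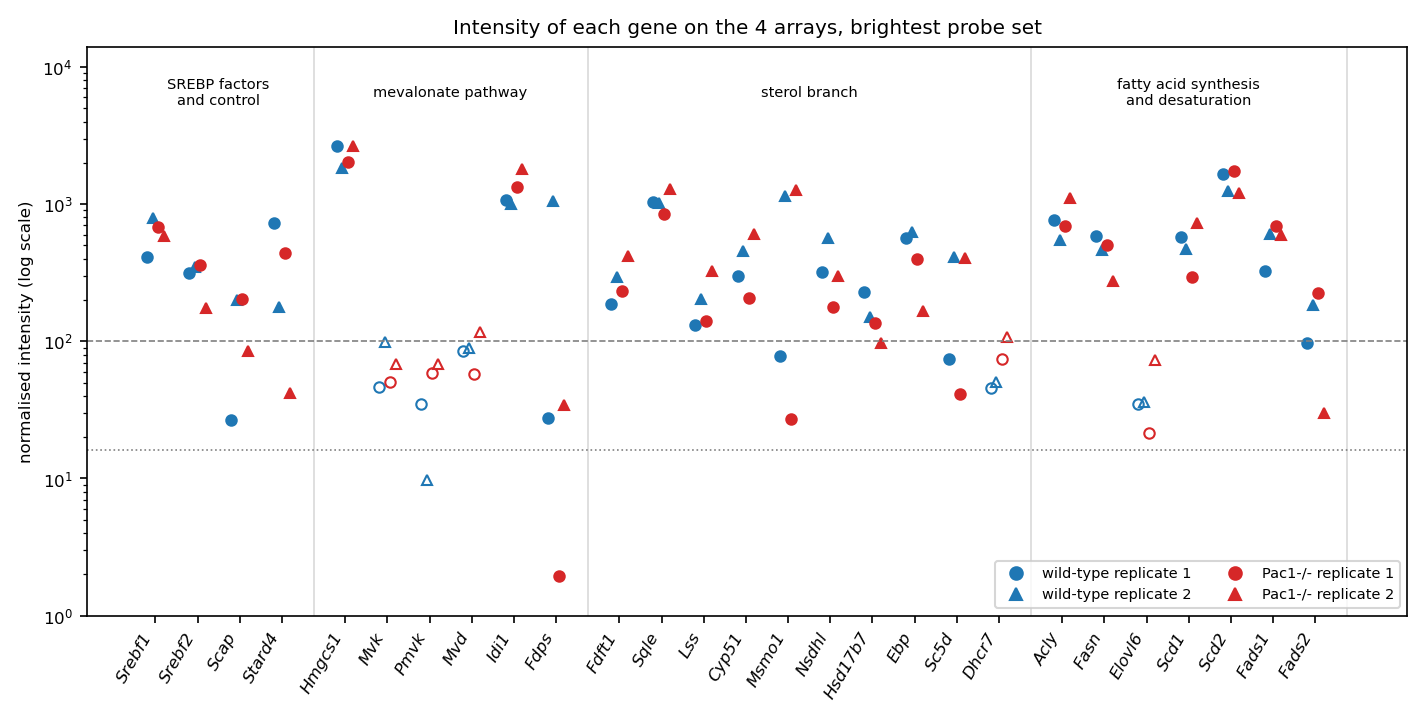
Normalised intensity (log scale) of each of the 27 genes on each array, by the brightest probe set, in order of role; circles are replicate 1 and triangles replicate 2, blue wild-type and red Pac1-/-, and open symbols are genes below the mean of 100 (dashed line) that were not tested. Hmgcs1, Idi1, Sqle, Acly and Scd2 read at least 550.2 on all 4 arrays, whereas 7 of the tested genes (Scap, Stard4, Fdps, Msmo1, Hsd17b7, Sc5d and Fads2) read below 100 on at least 1.

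The regulators come first. Srebf1, whose protein mainly drives fatty acid genes, read 412 and 793 in wild-type replicates 1 and 2 and 687 and 585 in Pac1-/- replicates 1 and 2. Srebf2, whose protein mainly drives cholesterol genes, read 317 and 348 in wild-type cells and 360.0 and 174 in Pac1-/- cells. In both genes the genotypes overlapped, with log2 differences of 0.15 ± 0.49 and -0.41 ± 0.52 (SE, n = 2 per genotype). The second Srebf2 probe set did not overlap, at 236 and 328 against 180.2 and 77.2, with a log2 difference of -1.24 ± 0.59 and limma's adjusted p of 0.866. Both Srebf2 probe sets were lowest on Pac1-/- replicate 2, the array with the GAPDH ratio of 191, whose part in these values was not tested.

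Scap varied about as much within a genotype as between genotypes, and Stard4 varied widely within each genotype by its brightest probe set. Scap read 26.6 and 199 in wild-type and 203 and 85.7 in Pac1-/- cells, so its log2 difference was 2.93 within replicate 1 and -1.22 within replicate 2. Stard4, a carrier of cholesterol between membranes, read 729 and 179 in wild-type and 441 and 41.9 in Pac1-/- cells by its brightest probe set. The replicate 1 culture was the higher one in both genotypes, and the Pac1-/- culture the lower one in both pairs. Its other tested probe set read 280.2 and 121 against 197 and 179 and had a log2 difference of 0.03 ± 0.56, beside -1.41 ± 1.49 for the brightest.

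In the mevalonate pathway, Hmgcs1 and Idi1 were bright on every array. Hmgcs1, the cytosolic HMG-CoA synthase that commits acetyl units to the pathway, read 2634 and 1821 in wild-type and 2041 and 2646 in Pac1-/- cells, a log2 difference of 0.09 ± 0.42 with overlapping genotypes. Idi1, the isomerase that makes the activated isoprene unit, read 1068 and 1006 in wild-type and 1328 and 1816 in Pac1-/- cells. It was the only tested gene of the set whose 2 Pac1-/- arrays both lay above both wild-type arrays, as they did in 26.1% of all tested genes. Its log2 difference was 0.58 ± 0.38 (SE; 95% confidence interval -0.50 to 1.67; limma adjusted p = 0.866), with 0.32 within replicate 1 and 0.85 within replicate 2.

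Farnesyl diphosphate synthase, Fdps, stands at the branch to sterols and prenyl groups and behaved differently from Hmgcs1 and Idi1. It read 27.7 and 1053 in wild-type and 1.95 and 34.3 in Pac1-/- cells, so wild-type replicate 2 was the only array with a clear signal. Its log2 difference, -2.87 ± 2.00 with limma's adjusted p of 0.866, depends on the floor of 16 to which lower values were set. The mevalonate kinase Mvk, the phosphomevalonate kinase Pmvk and the decarboxylase Mvd were too dim to test. By their brightest probe sets Mvk read between 46.4 and 98.4, Mvd between 57.5 and 116 and Pmvk between 9.7 and 68.6 over the 4 arrays. Pmvk read 34.9 and 9.7 in wild-type and 59.0 and 68.6 in Pac1-/- cells, which did not overlap.

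Promoter sequence was available for 22 of the 29 listed genes in RefSeq (GRCm38.p6, 250 bases before to 50 after each start) and was searched on both strands for 3 motifs. They are not the same 22 genes as those tested for expression. TCACNCCAC, the core of the sterol regulatory element, was found in 1 of the 22, Hmgcs1, and in 1.44% of all 27025 genes in the table. CCAAT, the box of the NF-Y factor that is known to act together with SREBPs, was found in 18 of the 22, 81.8%, and in 41.1% of all genes. The E-box CACGTG was found in 5 of the 22, Dhcr7, Hsd17b7, Insig1, Sc5d and Scap, and in 8.09% of all genes. These matches describe the letters in the window and say nothing of binding in these cells. The sequences up to the start are given for Hmgcs1 with the sterol element (chr13:119690101-119690350, plus strand), Idi1 as the gene with the higher Pac1-/- arrays (chr13:8885356-8885605, plus strand) and Ebp as the gene with the lowest p of the set (chrX:8193513-8193762, minus strand). Capitals mark the 9 letters of TCACNCCAC and the 5 letters of CCAAT or its complement ATTGG, which do not overlap.
Hmgcs1: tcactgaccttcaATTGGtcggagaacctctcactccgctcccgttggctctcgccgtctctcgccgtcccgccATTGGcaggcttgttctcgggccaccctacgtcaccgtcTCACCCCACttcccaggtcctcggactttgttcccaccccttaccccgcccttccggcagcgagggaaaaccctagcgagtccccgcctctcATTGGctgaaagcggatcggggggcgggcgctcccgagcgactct
Idi1: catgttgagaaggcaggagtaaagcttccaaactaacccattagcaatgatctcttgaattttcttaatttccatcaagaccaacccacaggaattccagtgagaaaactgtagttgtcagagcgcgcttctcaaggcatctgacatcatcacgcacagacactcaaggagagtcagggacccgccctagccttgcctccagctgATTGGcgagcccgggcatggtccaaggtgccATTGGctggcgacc
Ebp: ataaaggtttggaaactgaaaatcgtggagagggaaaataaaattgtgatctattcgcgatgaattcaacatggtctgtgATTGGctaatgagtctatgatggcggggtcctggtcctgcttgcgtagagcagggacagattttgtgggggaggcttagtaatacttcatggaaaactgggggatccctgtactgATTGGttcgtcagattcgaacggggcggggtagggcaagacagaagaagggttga
In Hmgcs1 the sterol element begins 137 bases before the start and CCAAT boxes begin 237, 176 and 45 bases before it. In Idi1 the boxes begin 45 and 14 bases before the start, and in Ebp 170 and 55 bases before it.

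Along the sterol branch, 3 of the 9 tested genes had lower signal on both Pac1-/- arrays than on both wild-type arrays, and none passed the test. Of all tested genes, 11.5% were lower in this way. In either direction the genotypes did not overlap in 33.3% of the branch's tested genes, against 37.6% of all tested genes. Ebp, the isomerase that shifts the sterol ring's double bond, read 565 and 631 in wild-type and 398 and 166 in Pac1-/- cells. Its log2 difference was -1.21 ± 0.58 (SE, 95% confidence interval -2.87 to 0.44, limma adjusted p = 0.866), with -0.50 within replicate 1 and -1.92 within replicate 2. Nsdhl, the dehydrogenase that helps remove the methyl groups of lanosterol, read 319.9 and 568 in wild-type and 178 and 301 in Pac1-/- cells. Its difference was similar in both pairs, -0.85 and -0.92, and -0.88 ± 0.54 over the 4 arrays (adjusted p = 0.866 by limma). Hsd17b7, the reductase that works beside it, read 229 and 151 in wild-type and 137 and 97.6 in Pac1-/- cells, with -0.75 and -0.63 in the pairs and -0.69 ± 0.44 in all (limma adjusted p = 0.866). Ebp and Hsd17b7 were lowest on Pac1-/- replicate 2, where the GAPDH ratio was 191 and the beta-actin ratio 54.8, and Nsdhl on Pac1-/- replicate 1, where they were 1.36 and 293. The part of these ratios in the values was not tested.

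For the early enzymes of the branch the genotypes overlapped by the brightest probe sets. Squalene synthase, Fdft1, read 188 and 294 in wild-type and 233 and 418 in Pac1-/- cells, and its log2 difference was 0.41 ± 0.52. Its other tested probe set did not overlap, at 151 and 298 in wild-type and 125 and 98.1 in Pac1-/- cells, with a difference of the opposite sign, -0.94 ± 0.51 (limma adjusted p = 0.866). Squalene epoxidase, Sqle, a rate-limiting enzyme of the branch, read 1031 and 1013 in wild-type and 843 and 1284 in Pac1-/- cells, which placed the wild-type arrays between the Pac1-/- arrays, with a difference of 0.03 ± 0.41. Lanosterol synthase, Lss, read 131 and 205 in wild-type and 141 and 325 in Pac1-/- cells. Cyp51, the lanosterol demethylase, read 298 and 457 in wild-type and 207 and 606 in Pac1-/- cells. By the brightest probe sets of Fdft1, Lss and Cyp51 the replicate 2 array read higher than the replicate 1 array in both genotypes. The brightest Fdft1 and Lss probe sets carry the array maker's suffixes for probes that may bind several transcripts, so their identity is less certain. The same holds for the brightest probe sets of Mvd, Ggps1, Vldlr, Lipa, Tecr and Xist, and for the second ones of Hmgcs1 and Acly.

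Msmo1, the methylsterol oxidase, and Sc5d, the sterol desaturase near the end of the pathway, followed the replicate number and not the genotype. Msmo1 read 78.3 and 1156 in wild-type and 27.1 and 1270.2 in Pac1-/- cells. Sc5d read 74.4 and 410.2 in wild-type and 41.5 and 404 in Pac1-/- cells. Their log2 differences between genotypes were -0.70 ± 2.51 and -0.43 ± 1.55. Dhcr7, the reductase of the last step, was too dim to test, at 45.5 and 50.1 in wild-type and 74.6 and 107 in Pac1-/- cells, which did not overlap.

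**Figure D2:**
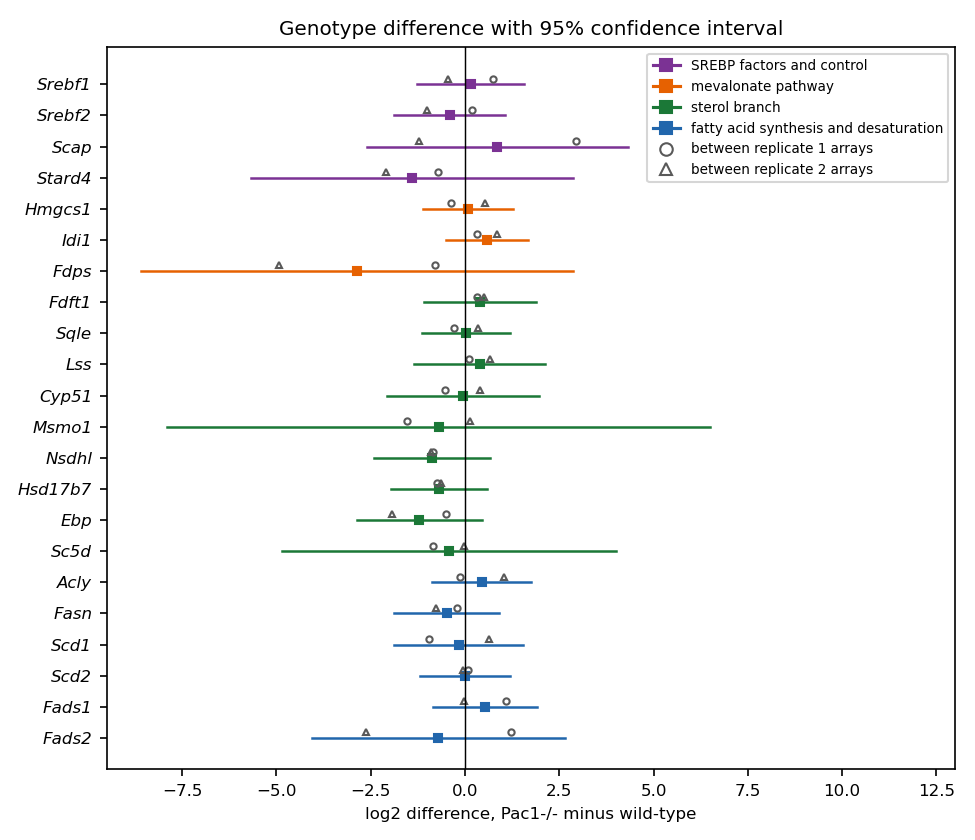
Log2 difference, Pac1-/- minus wild-type, of each of the 22 tested genes by its brightest probe set; squares are the estimates and lines their 95% confidence intervals, coloured by role, and open circles and triangles are the differences within replicate 1 and within replicate 2. Every interval includes 0, and those of Msmo1, Fdps, Sc5d and Stard4 are the widest.

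In none of the 6 tested fatty acid genes were the genotypes separate by the brightest probe set, against 37.6% of all tested genes. The second probe sets of Scd2 and Fads2, also tested, did not overlap. Acly, which makes cytosolic acetyl-CoA from citrate, read 763 and 550.2 in wild-type and 694 and 1117 in Pac1-/- cells, and the fatty acid synthase Fasn 585 and 465 in wild-type and 505 and 273 in Pac1-/- cells. Their log2 differences were 0.44 ± 0.46 and -0.49 ± 0.49. The stearoyl-CoA desaturase Scd2 was nearly level by its brightest probe set, at 1655 and 1257 in wild-type and 1739.8 and 1211 in Pac1-/- cells. Scd1, the other desaturase of saturated chains, read 574 and 469 in wild-type and 296 and 729.5 in Pac1-/- cells, so both wild-type arrays lay between the Pac1-/- arrays. The elongase Elovl6 was not tested and read between 21.6 and 73.0.

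The desaturases of polyunsaturated fatty acids, Fads1 and Fads2, gave differences of opposite sign in the pairs of arrays. Fads1 read 327 and 609 in wild-type and 692 and 596 in Pac1-/- cells, with a log2 difference of 1.08 within replicate 1 and -0.03 within replicate 2, and 0.52 ± 0.48 in all (limma adjusted p = 0.875). Fads2 read 97.3 and 183 in wild-type and 225 and 29.9 in Pac1-/- cells, with 1.21 and -2.61 in the pairs. The other Fads2 probe set was steadier, at 139 and 172 in wild-type and 102 and 108 in Pac1-/- cells. It did not overlap, and its log2 difference was -0.55 ± 0.36 (limma adjusted p = 0.866).

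Where a gene had several tested probe sets, these often told different stories. Of 10 such genes, 5 had the same sign of difference in all of them, 50%, against 43.0% of 1468 such genes on the whole array. Idi1 and Acly were positive and Srebf2, Scd1 and Fads2 negative throughout, while Hmgcs1, Stard4, Fdft1, Cyp51 and Scd2 were split. The second Idi1 probe set read 298 and 22.9 in wild-type and 301 and 313 in Pac1-/- cells, so the log2 difference of 1.89 ± 1.40 rests on wild-type replicate 2. Wild-type replicate 2 was likewise the lowest array for 2 other Hmgcs1 probe sets. It read 503 on the brighter of these, where the other arrays read between 1246 and 1540, and 186 on the dimmer, where they read between 691 and 831.

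Scd2 showed the widest split. Its second probe set read 434 and 930.2 in wild-type and 285 and 19.4 in Pac1-/- cells, a log2 difference of -3.09 ± 1.52 (limma adjusted p = 0.866), and its dimmest tested one read 739 and 181 in wild-type and 439 and 30.9 in Pac1-/- cells. The brightest probe set of the same gene read 1211 on the Pac1-/- replicate 2 array, where the other probe sets nearly vanished. That array has the GAPDH 3' to 5' ratio of 191, and where these probe sets lie along the transcript was not analysed here. Its part in the split was not tested. Over the set as a whole Pac1-/- replicate 2 was the lowest array for 7 of the 22 genes, 31.8%, and the highest for 9, 40.9%, against 26.1% and 37.3% of all tested genes.

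**Figure D3:**
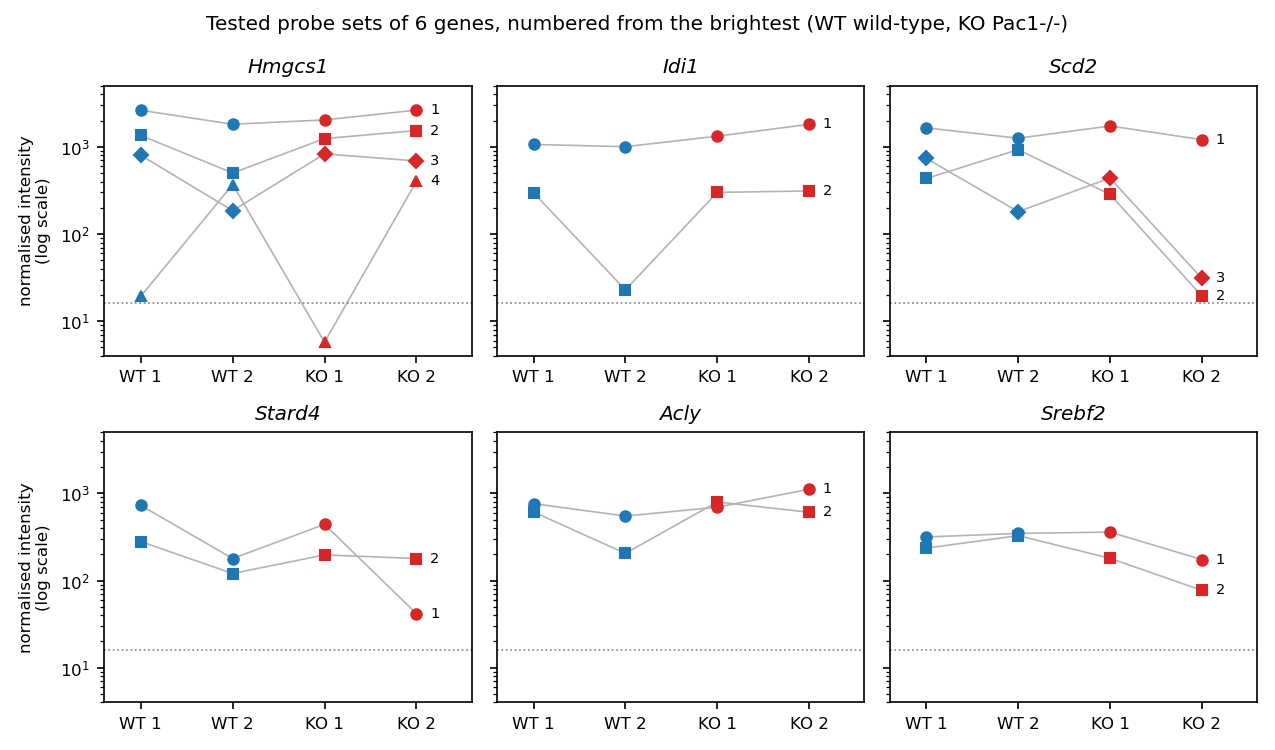
Normalised intensity (log scale) of every tested probe set of 6 genes on the 4 arrays, numbered from the brightest, with a line joining the values of a probe set; blue is wild-type, red Pac1-/-, and the dotted line is the floor of 16. The brightest Scd2 probe set reads at least 1211 throughout while the dimmer ones are at 19.4 and 30.9 on Pac1-/- replicate 2, and the fourth Hmgcs1 probe set is low on both replicate 1 arrays.

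The cultures of a genotype lay about as far apart as the genotypes in wild-type cells and farther apart in Pac1-/- cells. Over the 22 genes the median absolute log2 difference was 0.63 from one wild-type culture to the other and 0.97 from one Pac1-/- culture to the other, against 0.63 and 0.65 from genotype to genotype within replicates 1 and 2. The replicate number accounted for 62.2% of the set's sum of squares, genotype for 18.6% and the remainder for 19.1%, against 75.2%, 15.3% and 9.55% for all tested genes. The shares varied between groups of the pathway, but single genes weighed heavily on them. In the sterol branch 86.2% lay between the replicate numbers, a share that was 49.6% without Msmo1 and Sc5d. In the fatty acid genes it was 24.0%, with 61.0% in the remainder. Fads2, at 1.21 and -2.61 in the pairs, weighed most on that remainder. Fdps, with a clear signal on 1 array only, weighed most on the genotype share of the set.

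Msmo1, Sc5d and Stard4 differed by more than 2 log2 units between replicate numbers in both genotypes, which is 13.6% of the set against 10.9% of all tested genes. Replicate 2 over replicate 1 was 3.88 and 5.55 on the log2 scale in wild-type and Pac1-/- cells for Msmo1, 2.46 and 3.29 for Sc5d, and -2.02 and -3.40 for Stard4. The fourth Hmgcs1 probe set did the same, at 19.4 and 370.3 in wild-type and 5.75 and 401 in Pac1-/- cells, although the brightest Hmgcs1 probe set did not. The summed intensity of 8 macrophage markers also moved with the number, from 7977 to 607 in wild-type and from 6112 to 609 in Pac1-/- cells. Of these, 2 markers read at least 100 on all 4 arrays, 4 did on any array and C1qa read below 16 on each. The sum of the stromal and adipocyte markers fell too, from 855 to 150 in wild-type and from 511 to 199 in Pac1-/- cells. Sparc alone of these reached 100 on any array. The neutrophil, the basophil and eosinophil, and the lymphocyte sums rose in both genotypes. The sex-linked genes Eif2s3y and Xist above differed between the numbers too. The beta-actin ratio was lower in replicate 2 of each genotype, but mainly set wild-type replicate 2 apart, at 1.58 against 54.8 on Pac1-/- replicate 2. The part of any of these in the values was not tested.

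**Figure D4:**
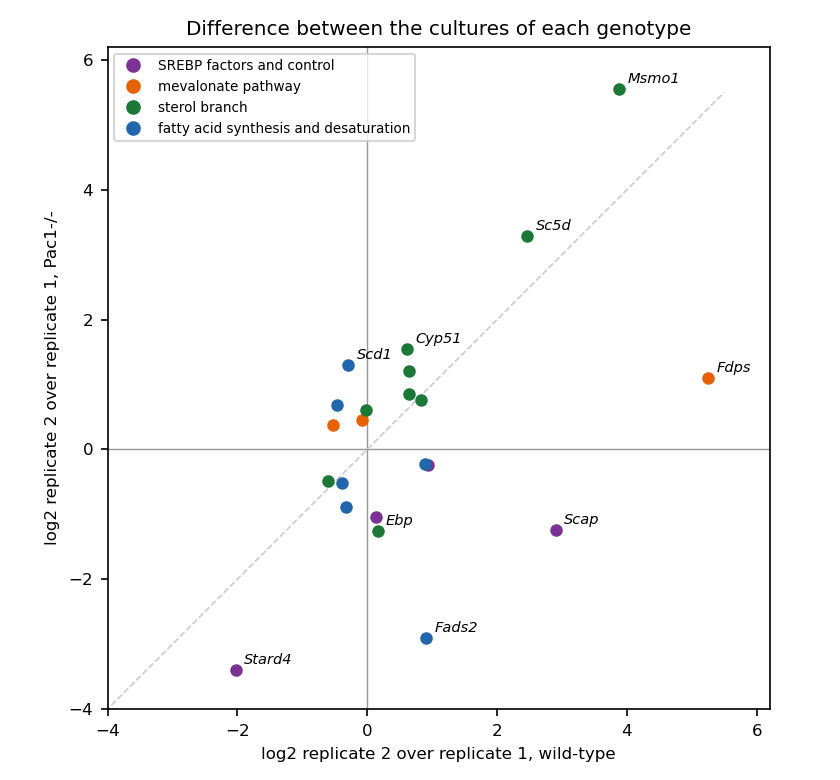
Log2 ratio of replicate 2 over replicate 1 in Pac1-/- cells (vertical axis) against the same ratio in wild-type cells (horizontal axis) for the 22 tested genes, coloured by role; points on the dashed line have equal ratios in both genotypes. Msmo1 and Sc5d at the upper right and Stard4 at the lower left moved the same way in both genotypes, while Fdps, Scap and Fads2 lie far from the line.

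Genes next to the pathway were read from 5 further lists. None of their tested genes passed limma's adjusted test, and Mylip alone passed at the unadjusted level, where 2.92% of all tested genes did. Of the other mevalonate and sterol genes, 4 of 8 on the array were tested, 2 positive and 2 negative, with a median log2 difference of 0.09. The prenyl diphosphate synthase Ggps1 was at 0.53 ± 0.49 and the sterol reductases Lbr and Tm7sf2 at 0.36 ± 0.41 and -0.22 ± 0.39, while the acetyl-CoA acetyltransferase Acat1 was at -0.19 ± 0.39. With median centring Tm7sf2 was at 0.08 and Acat1 at 0.55, below the median of 0.72 of all tested genes. Of the other genes of SREBP control, 3 of 8 were tested and all 3 were positive: the protease gene Mbtps1 at 0.27 ± 0.41 and the vesicle coat genes Sec23a and Sec24d at 0.53 ± 0.47 and 0.10 ± 0.40. In none of these 7 genes were the genotypes separate by the brightest probe set, against 37.6% of all tested genes. The dimmest tested Acat1 probe set did not overlap, at 87.0 and 74.8 in wild-type and 132 and 188 in Pac1-/- cells. Its log2 difference was 0.96 ± 0.40 (limma adjusted p = 0.866), of the opposite sign to the brightest.

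Among genes of cholesterol uptake, transport, storage and export, 6 of 11 tested were positive and 5 negative, with a median of 0.02. Mylip, a ubiquitin ligase that removes lipoprotein receptors when sterols are plentiful, read 202 and 149 in wild-type and 422 and 342 in Pac1-/- cells. The genotypes did not overlap, and the log2 difference was 1.13 ± 0.39 (SE, unadjusted p = 0.0492, limma adjusted p = 0.866). The lipoprotein receptor Vldlr read 33.3 and 85.4 in wild-type and 199 and 153 in Pac1-/- cells, with 1.71 ± 0.62. The lysosomal lipase Lipa read 93.2 and 137 in wild-type and 157 and 254 in Pac1-/- cells, with 0.82 ± 0.47. The oxysterol-binding family member Osbpl9 was at 0.84 ± 0.63 with overlapping genotypes, and at 0.22 without Pac1-/- replicate 2. The limma adjusted p of Vldlr, Lipa and Osbpl9 was 0.866 each, and Mylip, Vldlr and Lipa were the 3 of 11 genes, 27.3%, whose genotypes did not overlap, all with higher Pac1-/- arrays, against 26.1% of all tested genes in that direction and 37.6% in either.

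In the remaining lists both directions occurred. Of 15 tested genes of fatty acid synthesis, elongation and activation outside the set, 7 were positive and 8 negative, with a median of -0.14. The dehydratase Hacd3 was at 0.99 ± 0.40 and the reductase Tecr at -1.05 ± 0.44, although both act in the same elongation cycle. The other tested Hacd3 probe set had the same sign as the brightest, at 0.98 ± 0.46. A Hacd3 probe set too dim to test had the opposite sign. It read 148 and 135 in wild-type and 34.15 and 18.0 in Pac1-/- cells, which did not overlap. The acyltransferase Gpam was at 0.72 ± 0.42 and malic enzyme Me1 at -0.55 ± 0.42. The other Gpam probe set, too dim to test, had the opposite sign to the brightest. It read 53.0 and 66.8 in wild-type and 26.1 and 31.2 in Pac1-/- cells, which did not overlap. Of 6 tested genes of fatty acid oxidation, 4 were positive and 2 negative, with a median of 0.20. The medium-chain dehydrogenase Acadm was at 0.80 ± 0.35 and the very-long-chain dehydrogenase Acadvl at -1.13 ± 0.67, or -0.37 without Pac1-/- replicate 2 and -1.89 without Pac1-/- replicate 1. The subunits of the mitochondrial trifunctional protein, Hadha and Hadhb, were at -1.09 ± 0.43 and 0.20 ± 0.42. For these 8 genes, named for the lowest p of their lists, limma's adjusted p was between 0.866 and 0.950. Over the whole lists the genotypes did not overlap in 5 of 15 synthesis genes, 33.3%, and 3 of 6 oxidation genes, against 37.6% of all tested genes.

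**Figure D5:**
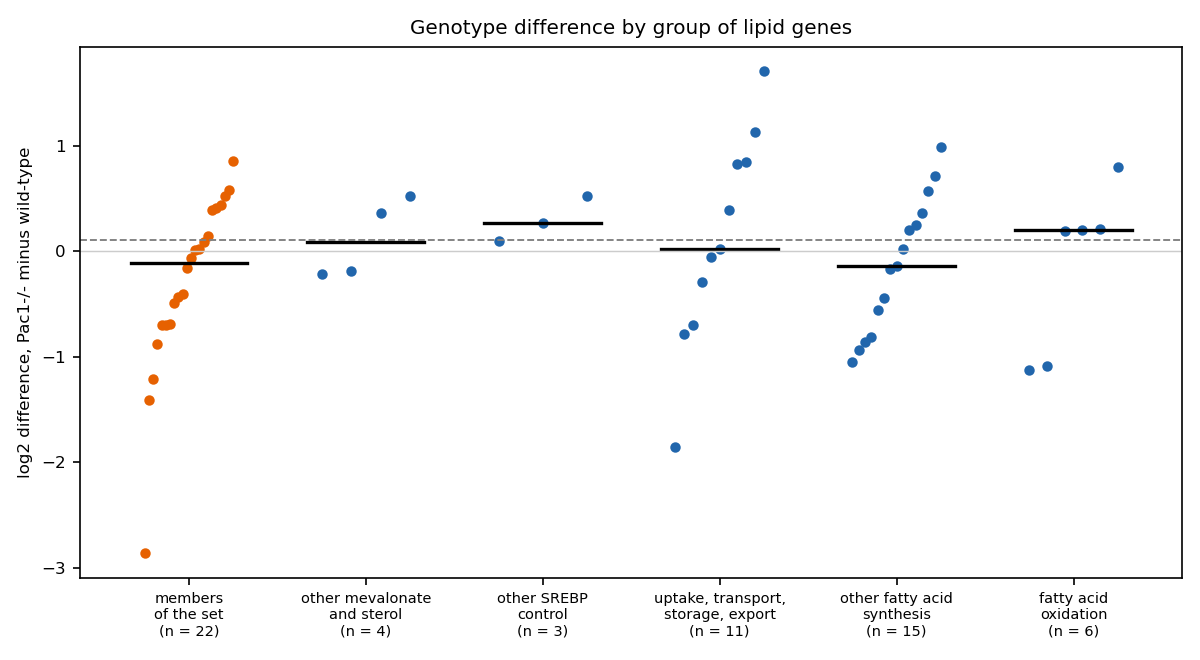
Log2 difference, Pac1-/- minus wild-type, of each tested gene by its brightest probe set (points) in the set described here (orange) and in 5 neighbouring lists (blue), with the number tested under each name; black bars are medians and the dashed line is the median of 0.10 over all 4998 tested genes. The list medians lie between -0.14 and 0.27.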

How the data were processed

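Labelled RNA of 4 cultures, 2 per genotype, was measured on Affymetrix 430A arrays. The deposited table gives linear intensity per probe set and array, and the submitters' processing notes name MAS5 as its source. Per the series' design text, the study itself used RMA values, eBayes of Limma version 1.3.12 and an intensity minimum of 100, and those values were not used here. The number of arrays limits the precision. The p-values rest on the spread between the 2 cultures of each genotype, pooled over the genotypes and moderated by limma over the tested probe sets. That spread includes what the replicate numbers share across the genotypes.

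Among 22690 probe sets, 64 are control features and were not used. The platform annotation gives 1 symbol to 20380 of the rest, several to 691 and none to 1555. Arrays were quantile normalised, values below 16 set to 16 and log2 taken. The 7770 probe sets with a mean of at least 100 were fitted with limma 3.58.1 (lmFit, eBayes, genotype only, two-sided, Benjamini-Hochberg over all probe sets, 2 residual and 1.71 prior degrees of freedom) in R 4.3.3. An exact permutation test cannot go below p = 0.3333 here. A gene is its brightest probe set. Where an array reads below 100 a size is approximate. The fit was run on simulated arrays drawn without a shared replicate effect, which checks the code and not its power on these arrays.

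The members and lists were chosen with earlier results of these data known. Full statistics are given for the 6 members with the lowest p, for up to 4 genes per neighbouring list with the lowest p, and for Dusp2. Values of other members and of second probe sets describe the set. Alternatives were the deposited values, median centring, other minimums and floors, a trend in eBayes, a replicate block, each array left out and averaged probe sets. Python 3.11.15 with matplotlib 3.10.9 drew the figures.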

Additional observations from a re-analysis of the deposited data

How the results depend on the processing

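No member passed limma's adjusted test under any alternative. The count past the unadjusted p, 0 as reported, was 1 with no intensity minimum (Dhcr7) and 2 with the replicate block (Fdps and Stard4). It was between 0 and 1 with an array left out (Fdps without wild-type replicate 1, Ebp without Pac1-/- replicate 1). With median centring 7 members were negative and the median over all 22 was 0.65. Over all probe sets the unadjusted count of 263 became 1762 with no minimum, 110 with a minimum of 200, 666 with the minimum after the adjustment, 899 with the replicate block, and between 79 and 408 with an array left out, while 0 passed the adjusted test in each.

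The replicate numbers are shared by the genotypes without a stated pairing. Deviations of same-numbered arrays correlated at r = 0.751 over tested probe sets, which are not replicates.

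Of 26 genes followed, 21 kept their sign throughout. Median centring put Tm7sf2 at 0.083 and Acat1 at 0.55, and averaging probe sets put Acat1 at 0.32. With an array left out the values lay between -0.88 and 0.003 for Dusp2, between -0.48 and 0.045 for Tm7sf2, between -0.43 and 0.055 for Acat1, between -0.15 and 0.35 for Sec24d (-0.02 without wild-type replicate 1) and between -0.094 and 0.5 for Hadhb. These reversals came without wild-type replicate 1 for Dusp2, without Pac1-/- replicate 1 for Acat1 and without Pac1-/- replicate 2 for the others. The member median lay between -0.35 and 0.25 with an array left out, and that of all tested genes between 0.13 and 0.24. With averaged probe sets they were -0.46 and 0.04.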
